A study of Zea mays with 48 samples.

Results

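ZmCCA1 binding was examined at 3 maize genes that the study took up as targets in carbon fixation and energy metabolism and whose peaks were not found in the same genotypes. The genes were GRMZM2G129513, which encodes a malate dehydrogenase, GRMZM2G126988, which encodes a starch synthase II, and GRMZM2G398288, which encodes a putative phospholipid-transporting ATPase. Their peaks were all rows of the 4 deposited peak lists that were assigned to a gene or overlapped its coordinates. This gave 7 peaks of 10136 in the 4 lists, and 3 genes of the 4321 that were assigned in any list. The study grouped all 3 with carbon fixation. The third is annotated as a lipid transporter and not as an enzyme of that pathway, and it is called here by its identifier.

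The lists came from the reciprocal F1 hybrids BM (B73 as the seed parent, Mo17 as the pollen parent) and MB (the opposite cross), and from their inbred parents B73 and Mo17. Aerial tissues were collected at 5 days after planting from seedlings under 16 h of light and 8 h of dark, so all 3 time points, ZT3, ZT9 and ZT15, fell in the light (ZT counts hours from dawn). Chromatin was precipitated with a polyclonal antibody, given as ZmCCA1b in the labels, and sequenced beside input chromatin, with 24 ChIP and 24 input libraries in 2 replicates. The antibody was raised against the MYB domain, which full-length ZmCCA1a shares, so binding of either protein cannot be told apart. The labels give no transgene for any of these plants. Each list gives 1 pooled log2(ChIP/Input) for a peak at each time point, so no value has a replicate error of its own, the read depth of a peak is unknown, and no replicate check of any difference was possible. A gene without a row in a list had no peak called in both replicates there, which is not the same as an absence of binding.

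CCA1 is a MYB transcription factor of the central circadian oscillator that accumulates around dawn and binds the evening element and the related CCA1-binding site. In the C4 leaf of maize, CO2 is first fixed in mesophyll cells, where malate dehydrogenase in the chloroplast reduces oxaloacetate to malate, and the malate moves to bundle sheath cells, where its CO2 is released to Rubisco. Starch synthases lengthen the glucan chains of the starch that leaves store in the light and use at night. Phospholipid-transporting ATPases move lipids across membranes in plants, and their link to carbon metabolism is not part of the textbook pathway.

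For GRMZM2G129513, the study designed gel-shift probes, and these are shown because the first carries the element to which CCA1 binds. In the first, capitals mark the evening element AAATATCT. In the second, capitals mark the 8 of its 29 bases that were replaced. The third, in which no base is marked, is the probe designed without the element.
EE probe: attaaatataaAAATATCTaaattcataa
Mutated probe: attaaatataCCCCGCGAtaaattcataa
Probe without the element: cgcggtgaagcatcactgggcccaagggg
The same gene had a primer pair for ChIP-qPCR, shown here as the region in which the study measured binding by a separate assay.
ChIP-qPCR forward primer: gagcacagatcccttggtat
ChIP-qPCR reverse primer: catcctagcattgatatcgt

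Both strands of these oligonucleotides were searched for the evening element AAATATCT, the CCA1-binding site AAAAATCT, the shorter forms AAAATA and AAGAAA, and the Dof motif AAAGC. The EE probe held the evening element once and AAAATA once, and these 2 matches share bases. The mutated probe, the probe without the element and both primers held none of the 5 motifs. The study described the gel-shift probes as promoter fragments, whereas the listed peak of GRMZM2G129513 begins 2992 bp downstream of the gene start. The oligonucleotides were not placed on the genome, so their exact distance from this peak was not measured. The share of other promoters with these motifs was not computed. Of the other genes, the primer table used here held pairs for transcript levels, which are not shown because they bear on no value here. The study also reported ChIP-qPCR at GRMZM2G398288 in the inbred B104, a ZmCCA1b overexpression line and its cross with Mo17. Those plants are not in the lists used here.

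GRMZM2G129513 lies on the minus strand of chromosome 1 at 203170067 to 203174226 (AGPv2, as are all positions below) and carries the RefSeq name mdh6. It had no peak in BM or MB, a single peak in B73 and none in Mo17. Of the 4321 genes assigned in any list, 983 (22.7%) were likewise assigned in B73 only, so this pattern was a common one. By ChIP-qPCR at this gene, the study reported a shift of binding in the hybrids, which it related to higher morning expression. The missing rows are therefore not read as an absence of binding at this gene in the hybrids. The assayed region was not placed relative to the B73 peak, so binding of the hybrids under that peak remains unknown. The peak spanned 203170348 to 203171234, a width of 886 bp, with its nearer edge 2992 bp downstream of the gene start and its farther edge 281 bp before the end of the gene. Its centre thus fell 82.6% of the way along the gene, in the part nearest to the 3′ end. The files give no exons, so exon, intron and UTR were not assigned.

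The B73 peak had a log2(ChIP/Input) of 0.93 (ZT3), 2.29 (ZT9) and 1.41 (ZT15). Binding in this list was therefore lowest in the morning and highest in the afternoon, with a lead of 0.88 over the next time point. At ZT3 the peak stood 0.55 below the median of the B73 list (departure -0.55), at ZT9 0.74 above it and at ZT15 0.08 above it. Its ZT9 value was at percentile 93.3 of the 3364 B73 peaks, and its ZT3 value at percentile 24.7. By strength, the highest of the 3 values, it ranked 542 of 3364 (percentile 83.9), and by swing, the highest minus the lowest, it ranked 949 with 1.36 (percentile 71.8). ZT3 minus the mean of the later time points was -0.92, at percentile 10.9 of the list, so few B73 peaks leaned further away from the morning.

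The surroundings of GRMZM2G129513 held little else. Within 100 kb on either side, the MB list held 1 peak and the B73 list 1 peak, both without an assigned gene and both on the downstream side, at distances of 79705 bp in MB and 80100 bp in B73. The MB neighbour had 0.72, 2.31 and 0.75 at ZT3, ZT9 and ZT15, and the B73 neighbour 1.29, 1.84 and 1.80. Both were highest at ZT9, as the peak within the gene was, but in the B73 neighbour ZT9 and ZT15 were nearly equal (1.84 and 1.80). In BM and Mo17 the nearest peaks were 412409 bp and 410452 bp away, and both were assigned to GRMZM2G389233. For scale, the median distance from a peak to its nearest neighbour was 95937 bp (BM), 194414 bp (MB), 91862 bp (B73) and 148878 bp (Mo17).

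**Figure D1:**
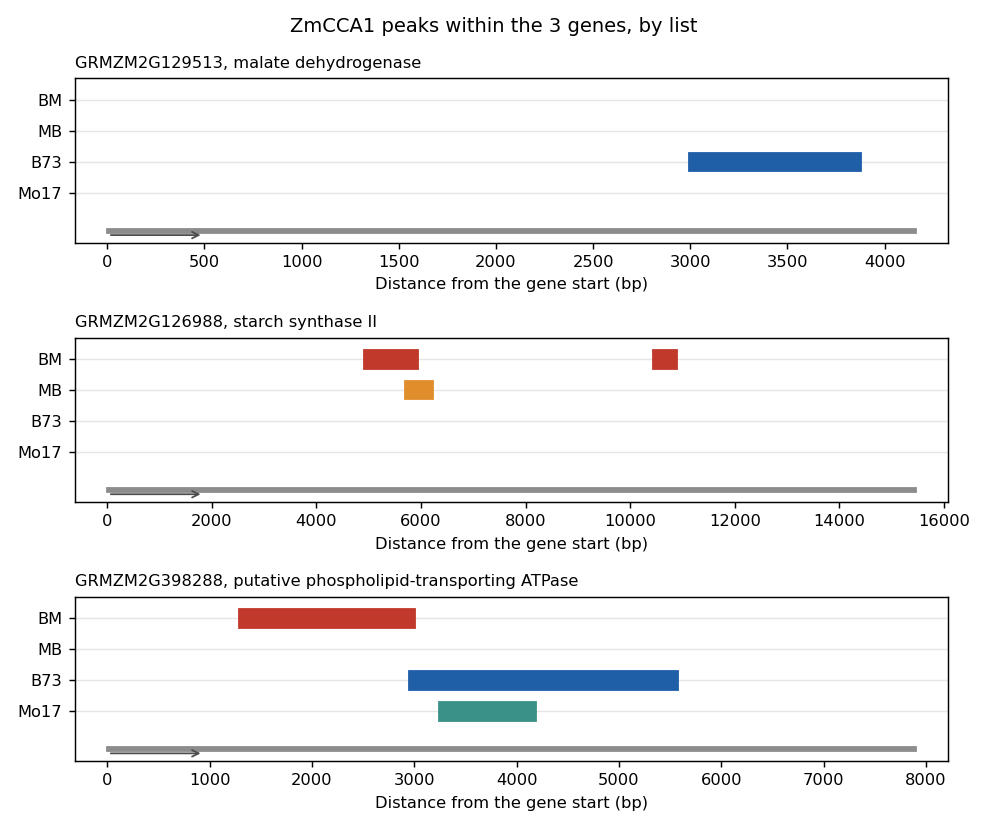
Position of the 7 peaks along the 3 genes, as distance from the gene start in bp, with a row for each list (BM, MB, B73, Mo17) and the gene as a grey bar whose arrow gives the direction of transcription. Coloured bars are peaks and an empty row means that no peak was listed. All 7 lie within the gene and none covers its start, the closest being the BM peak of GRMZM2G398288 at 1287 bp.

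GRMZM2G126988, on the minus strand of chromosome 5 at 33050572 to 33066028, is the longest of the 3 genes (15456 bp), and its peaks were listed in both hybrids and in neither inbred. BM had 2 peaks and MB had 1. Among the 4321 genes, 95 (2.2%) were assigned in BM and MB only. Having several peaks was itself uncommon in BM, where 319 of 2063 assigned genes (15.5%) had 2 or more. In the hybrids the nearest peaks outside the gene were 385020 bp away in BM and 3457170 bp away in MB. In the inbred lists the nearest peaks lay 386658 bp away in B73 and 441863 bp away in Mo17, so none lay just outside the gene there.

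The upstream BM peak spanned 33060091 to 33061118 (1027 bp), with its centre 5423 bp from the gene start. The MB peak spanned 33059792 to 33060339 (547 bp), with its centre 5962 bp from the start. These peaks shared 248 bp, which is 24.1% of the BM peak and 45.3% of the MB peak. They thus marked neighbouring but not identical stretches of the gene, and they did not meet a reciprocal overlap of 50%, which 67.9% of the 828 overlapping BM and MB pairs met. The downstream BM peak spanned 33055132 to 33055585, was 453 bp wide, lay 4506 bp from the upstream one with its centre 10669 bp from the start, and had no counterpart in MB. Across the lists, 810 of 2796 BM peaks (29.0%) overlapped an MB peak, and 783 of 1874 MB peaks (41.8%) overlapped a BM peak. The downstream BM peak was among the narrowest of its list (percentile 2.68 by width), as was the MB peak of its own list (percentile 9.71).

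At the upstream BM peak, enrichment of ChIP over input was 2.30 at ZT3, 1.68 at ZT9 and 2.00 at ZT15 (log2). It was the flattest of the 7 peaks, and the only one that was highest at ZT3. The overlapping MB peak had 0.55 at ZT3, 2.33 at ZT9 and 0.24 at ZT15. It was the steepest of the 7, highest at ZT9 and low at both other time points. The downstream BM peak had 0.84, 2.04 and 1.30 at ZT3, ZT9 and ZT15. It therefore followed the order of the MB peak at ZT3 and ZT9 and not that of the peak beside it in BM.

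Between the overlapping peaks, BM minus MB was 1.74 at ZT3, -0.65 at ZT9 and 1.76 at ZT15. BM was the higher at ZT3 and ZT15, and the lower at ZT9. Over all 828 overlapping BM and MB pairs, the median of BM minus MB was 0.10, 0.07 and -0.21 at these time points, with an SD between 0.58 and 0.59. At ZT3, 16 pairs had a difference as high as that of GRMZM2G126988, and at ZT15 4 pairs did, the pair itself included. At ZT9 the difference was at percentile 11.4 of these pairs. These are places within the lists and not tests, since each list holds 1 value for a peak, and the values belong to peaks of different width. ZT3 minus ZT9 was 0.62 in BM and -1.77 in MB. The time of the highest value was the same in 60.6% of the 828 pairs, and GRMZM2G126988 was not among them.

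Within BM, the upstream peak minus the downstream peak was 1.46 at ZT3, -0.36 at ZT9 and 0.70 at ZT15. Peaks of 1 gene thus had different times of highest value in the same plants. Among the 274 BM genes with exactly 2 peaks, 116 (42.3%) had different times of highest value, so a split of this kind was frequent. The size at ZT3 was less frequent: the median absolute difference at ZT3 was 0.47 over the 274 genes, and 16 of them reached 1.46, GRMZM2G126988 included.

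**Figure D2:**
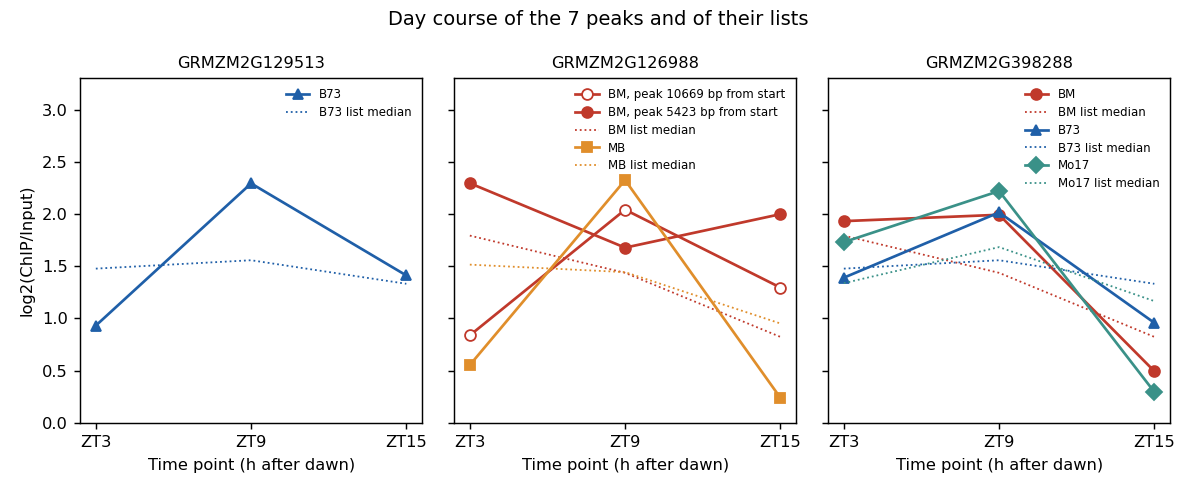
log2(ChIP/Input) of the 7 peaks over the 3 time points (x axis, hours after dawn), with a panel for each gene, colours for the lists and the median of all peaks of a list as a dotted line. Points are single pooled values without error. At GRMZM2G126988 the upstream BM peak (filled circles, 2.30, 1.68 and 2.00) runs opposite to the MB peak (squares, 0.55, 2.33 and 0.24), and at GRMZM2G398288 the BM, B73 and Mo17 peaks all fall to under 1 at ZT15.

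In its list, the upstream BM peak ranked 511 of 2796 by strength (percentile 81.8) and 2483 of 2796 by swing (percentile 11.2), with a swing of 0.62. By the mean of the 3 values it stood at percentile 97.1 of BM, with percentile 85.7 at ZT3 and 63.9 at ZT9. Its ZT15 value was at percentile 97.1 too, with a departure of 1.18 from the BM median, against 0.50 at ZT3 and 0.24 at ZT9. Relative to the BM medians, which were 1.79 at ZT3, 1.44 at ZT9 and 0.82 at ZT15, its highest value was thus at ZT15 and not at ZT3, and its swing moved to percentile 53.3.

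The MB peak ranked 244 of 1874 by strength (percentile 87.0) and 195 by swing (percentile 89.6), with a swing of 2.09. Its strength rested on ZT9, where it was at percentile 94.9 of MB. By the mean of the 3 values it fell in the lower part of the list, at percentile 33.7, and at ZT3 alone it was at percentile 16.8. The downstream BM peak ranked 1227 of 2796 by strength (percentile 56.2) and 1512 by swing (percentile 46.0), with a swing of 1.20. After centring on the BM medians its swing stood at percentile 82.9, since the list fell over the day while this peak was lowest in the morning. ZT3 minus the mean of the later time points was 0.46 at the upstream BM peak, -0.83 at the downstream BM peak and -0.73 at the MB peak, which are percentiles 40.2, 6.44 and 15.2 of their lists.

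GRMZM2G398288, on the minus strand of chromosome 9 at 131374245 to 131382142, had 1 peak each in BM, B73 and Mo17 and none in MB. Among the 4321 genes, 177 (4.1%) were assigned in these 3 lists only. In MB the nearest peak lay 202598 bp from the gene and was assigned to GRMZM2G006178. In the other lists the nearest peaks outside the gene were 209744 bp away in BM, 278434 bp away in B73 and 343318 bp away in Mo17. No list thus held a peak outside the gene within 100 kb of it.

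The BM peak spanned 131379136 to 131380855 (1719 bp), with its nearer edge 1287 bp from the gene start. The B73 peak spanned 131376566 to 131379195 (2629 bp), and the Mo17 peak 131377953 to 131378896 (943 bp), with nearer edges 2947 bp and 3246 bp from the start. The BM peak was therefore the closest to the start, and the Mo17 peak lay wholly inside the B73 peak, of which it covered 35.9%. The BM peak shared 59 bp with the B73 peak, 3.43% of its own width and 2.24% of the B73 peak, and it ended 240 bp short of the Mo17 peak. Only 9 of the 1256 overlapping BM and B73 pairs shared fewer bases, with a median overlap of 864 bp over these pairs. No pair at this gene met a reciprocal overlap of 50%. The B73 peak was among the widest of its list (percentile 96.1), and the 3 peaks together covered 54.3% of the gene.

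For comparison, 1200 of 2796 BM peaks (42.9%) overlapped a B73 peak and 1216 of 3364 B73 peaks (36.1%) overlapped a BM peak, while 954 of 3364 B73 peaks (28.4%) overlapped a Mo17 peak and 950 of 2102 Mo17 peaks (45.2%) overlapped a B73 peak. At GRMZM2G398288 the BM peak and the inbred peaks thus lay in the same gene with little or no sequence in common. The Mo17 reads were aligned to another assembly than the B73 reads, and hybrid reads to both, so an effect of the genotype on the extent of a peak and an effect of the assembly cannot be told apart.

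At the BM peak of GRMZM2G398288, enrichment of ChIP over input was 1.93 at ZT3, 1.99 at ZT9 and 0.49 at ZT15 (log2). The B73 peak had 1.39, 2.02 and 0.96 at the same time points, and the Mo17 peak 1.73, 2.22 and 0.30. All 3 were highest at ZT9 and lowest at ZT15, although in BM the lead of ZT9 over ZT3 was 0.06. The lists lay closest together at ZT9, where their range was 0.23, against 0.54 at ZT3 and 0.66 at ZT15. BM minus the mean of B73 and Mo17 was 0.37 at ZT3, -0.13 at ZT9 and -0.13 at ZT15. As deposited, BM was thus above both inbreds at ZT3 alone, but the whole BM list was higher at that time point, with a median of 1.79, against 1.48 in B73 and 1.34 in Mo17. Relative to these medians the order turned, with 0.14 in BM, against -0.09 in B73 and 0.39 in Mo17. At ZT9 the departures from the list medians were 0.56 in BM, 0.46 in B73 and 0.54 in Mo17. At ZT15 they were -0.33 in BM, -0.37 in B73 and -0.87 in Mo17. After centring, BM was thus above both inbreds at ZT9 and ZT15 and not at ZT3. The peaks compared share 59 bp (BM and B73) or none (BM and Mo17), and no replicate error can be set against these differences.

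BM minus B73 at the overlapping peaks was 0.54 at ZT3, -0.02 at ZT9 and -0.46 at ZT15, against medians of 0.17, -0.10 and -0.52 over all 1256 overlapping BM and B73 pairs. B73 minus Mo17 was -0.34, -0.20 and 0.66, against medians of 0.06, -0.13 and 0.15 over 986 overlapping pairs. At every time point these differences lay between the 5th and the 95th percentile of the pairs, within the range of other sites bound in both lists.

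By strength, the BM and B73 peaks stood near the middle of their lists and the Mo17 peak in the upper part. The BM peak ranked 1378 of 2796 (percentile 50.8), the B73 peak 1419 of 3364 (percentile 57.8) and the Mo17 peak 484 of 2102 (percentile 77.0). By swing the BM peak ranked 996 with 1.50 (percentile 64.4), the B73 peak 1540 with 1.06 (percentile 54.3) and the Mo17 peak 239 with 1.93 (percentile 88.7). The Mo17 peak therefore stood out by its swing more than by its strength. From ZT3 and ZT9 alone, the BM peak was at percentile 4.61, the B73 peak at 50.7 and the Mo17 peak at 42.0, so ZT15 carried the rank in BM and Mo17 and hardly moved it in B73. ZT3 minus the mean of the later time points was 0.69 in BM, -0.10 in B73 and 0.47 in Mo17, which are percentiles 53.5, 46.4 and 78.2.

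**Figure D3:**
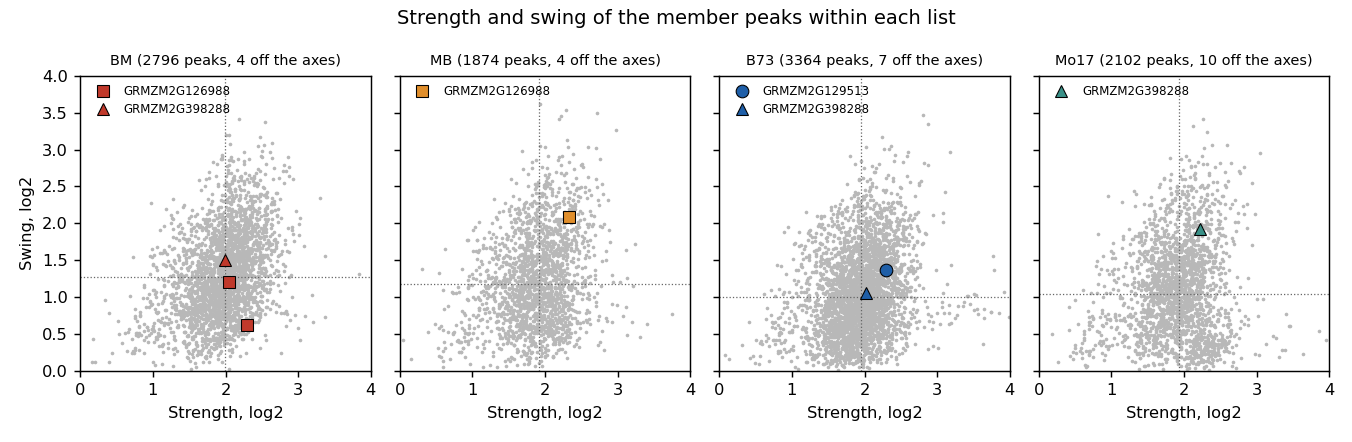
Strength (highest of the 3 log2 values, x axis) and swing (highest minus lowest, y axis) of all peaks in each list in grey, with the peaks of the 3 genes as large symbols and list medians as dotted lines. A few peaks fall off the axes (BM 4, MB 4, B73 7 and Mo17 10). The large symbols lie between 1.99 and 2.33 in strength and between 0.62 and 2.09 in swing.

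Over the 7 peaks, the highest values lay between 1.99 and 2.33 and the swings between 0.62 and 2.09. Swing also varied more than strength in the lists: in BM, for example, the median and the 90th percentile were 1.99 and 2.45 for strength and 1.27 and 2.08 for swing. All 7 were above the median of their list by strength, from percentile 50.8 to 87.0, and none was above the 90th percentile. By swing 5 of the 7 were above the median, from percentile 11.2 to 89.6.

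By the time of the highest value, 6 of the 7 peaks were highest at ZT9 and 1 at ZT3, and none was highest at ZT15. In the whole lists, ZT9 was the highest time point for 31.1% of BM peaks, 35.0% of MB peaks, 37.8% of B73 peaks and 48.4% of Mo17 peaks, peaks with a tie left out. At ZT9 all 7 were above the median of their list, by 0.24 to 0.88, whereas at ZT3 and at ZT15 3 of the 7 were above it. The values spread least at ZT9 (1.68 to 2.33) and more widely at ZT3 (0.55 to 2.30) and ZT15 (0.24 to 2.00). The study took up these genes for the timing of their binding, so the choice was not independent of the time point, and nothing is read from the share at ZT9. Of the 7 peaks, 4 led the next time point by 0.5 or more.

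**Figure D4:**
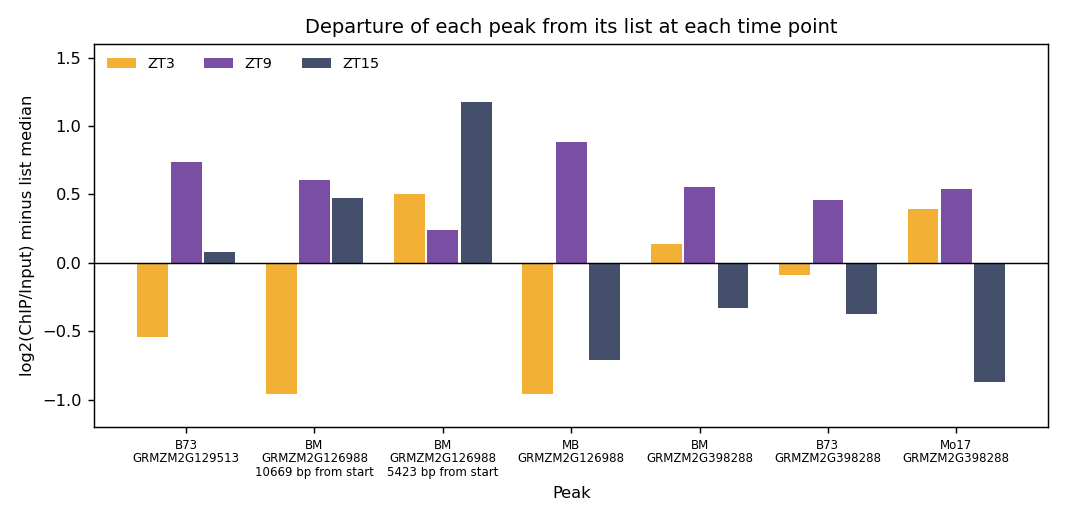
log2(ChIP/Input) of each of the 7 peaks minus the median of its list, at ZT3, ZT9 and ZT15 (bars from 0, with no error). The ZT9 bar is above 0 for all 7 peaks, from 0.24 to 0.88, and the largest bar is that of the upstream BM peak of GRMZM2G126988 at ZT15, 1.18 above the BM median.

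By position, all 7 peaks lay wholly inside the gene and none over its start. Wholly inside the assigned gene were 71.3% of BM peaks, 67.0% of MB peaks, 73.1% of B73 peaks and 65.3% of Mo17 peaks, so this position was the usual one. Peaks over the start of the assigned gene made up 3.72% of the BM list, 4.43% of the MB list, 3.66% of the B73 list and 4.52% of the Mo17 list, so a start site free of peaks was usual as well. No further peak came in when 2 kb on either side of each gene were included.

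The genes whose values were most like those of each member were sought among genes assigned in exactly the same lists, by the Euclidean distance over all list and time point values, with the highest value over its peaks as a gene's value at each time point. For GRMZM2G129513, over 3 values and 982 other B73-only genes, these were GRMZM2G011101 at a distance of 0.11 (0.96, 2.39 and 1.36 at ZT3, ZT9 and ZT15), GRMZM5G832248 at 0.12 (1.01, 2.31 and 1.50) and GRMZM2G387485 at 0.12 (0.99, 2.19 and 1.36). The median distance was 1.39. GRMZM2G126988, over 6 values and 94 other genes of both hybrids only, had GRMZM2G093992 at 1.05, GRMZM5G821988 at 1.20 and GRMZM2G033619 at 1.33, with a median of 2.42. Its BM values here (2.30, 2.04 and 2.00) came from both peaks, upstream at ZT3 and ZT15 and downstream at ZT9, so they describe a composite day course that neither peak had. For GRMZM2G398288, over 9 values and 176 genes, GRMZM2G102510 was at 1.02, GRMZM2G348666 at 1.06 and GRMZM2G159009 at 1.17, with a median of 2.095. The distances grow with the number of values and are not comparable between members.

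Among 6 other genes of energy and carbon metabolism that the study took up, 3 had a peak in at least 1 list. GRMZM2G121612 (starch synthase III, another chain-lengthening enzyme), GRMZM2G033885 (a light harvesting protein of photosystem II) and GRMZM2G412611 (alpha-glucan water dikinase, which phosphorylates starch for its breakdown) had none. For GRMZM2G121612 and GRMZM2G033885 the study reported binding by ChIP-qPCR and gel shift, so a missing row is not an absence of binding. GRMZM2G394732 (photosystem II reaction center protein Z) had a peak in neither hybrid and in each inbred, the opposite of GRMZM2G126988. Its log2(ChIP/Input) was 4.51, 4.27 and 5.35 at ZT3, ZT9 and ZT15 in B73 and 4.27, 4.60 and 5.27 in Mo17, far above any value of the 7 peaks. The study nevertheless reported a shift of binding in the hybrids at GRMZM2G394732. It also measured binding there by ChIP-qPCR in an overexpression line and its cross with Mo17. GRMZM2G427369 (photosynthetic reaction center protein) and GRMZM2G448142 (ATP synthase beta subunit) had peaks in all 4 lists. Of all 4321 assigned genes, 418 (9.67%) were in all 4 lists. With so few genes, nothing is read from the 2 of 6.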

How the data were processed

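The authors trimmed the reads, aligned them with Bowtie2 to AGPv2 (B73), to a reference-guided Mo17 assembly (Mo17) or to both (hybrids), kept unique concordant pairs, removed duplicates, down-sampled the libraries, called peaks with MACS2 2.0.1 (version from the submitters' processing notes) against input, retained those overlapping between replicates and combined the time points into 1 list for each genotype. The deposited values are log2 ratios of ChIP to input, 1 for each peak, list and time point, used as deposited. How the replicates were combined is not given in the sources used here, and no value column was left out. Peaks were ranked among all peaks of their list, and the percentile is the share of peaks at or below a value. Overlap meant at least 1 bp. The planned test of hybrids against inbreds needed peaks in all 4 lists, which no member had, so no p-value is given. Named genes were the members, the 3 most alike genes each, 6 targets of the study, pathway genes and genes of peaks within 100 kb. The pathway genes were to be found by annotation words, which the RefSeq gene table (assembly Zm-B73-REFERENCE-NAM-5.0, used for names only, with all 3 members matched) does not hold, so 23 genes were taken by symbol after the files were seen. The members and lists were chosen with earlier results of these data known. Alternatives were other measures of strength and swing, centring, other peak sets and stricter overlap. The functions were tested on simulated lists. Python 3.11.15, numpy 2.4.6, pandas 2.3.3, scipy 1.17.1 and matplotlib were used.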

Additional observations from a re-analysis of the deposited data

Results flagged for a closer look

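At the overlapping BM and MB peaks of GRMZM2G126988 (starch synthase II), ZT3 minus ZT9 was 0.62 in BM and -1.77 in MB, a difference of 2.39 on the log2 scale. It drew attention because the overlapping peaks of the reciprocal hybrids moved in opposite directions from ZT3 to ZT9. The downstream BM peak of this gene rose from 0.84 at ZT3 to 2.04 at ZT9, as the MB peak did. The opposite directions thus hold for the overlapping peaks and not for the gene as a whole. Over the same time points the list medians fell from 1.79 to 1.44 in BM and from 1.52 to 1.44 in MB. The difference of 2.39 was not tested, since each peak has a single pooled value at each time point. Of the 828 overlapping BM and MB pairs, 22 had a difference at least as high, this pair included, and the SD over the pairs was 0.96. The peaks shared 248 bp, and 28 pairs shared less. The part of peak width and of the site in this difference was not tested.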

How the results depend on the processing

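No paired analysis was possible because each list holds a single pooled value for a peak and time point, with no column for a replicate. For the same reason no replicate could be left out, and the alternatives planned for hybrids against inbreds gave no value, since no member had peaks in all 4 lists. The number of member peaks stayed at 7 with the authors' assignment alone and with 2 kb on either side. The 3 overlapping pairs of member peaks became 0 at a reciprocal overlap of 50%. Of the 7 peaks, 6 were highest at ZT9 after centring on the list medians or means, and 4 with a required lead of 0.5 (chosen after seeing the data). The 7 peaks above the list median by strength became 6 by the mean of the 3 values, after centring, and among peaks with or overlapping a gene, and 3 by ZT3 alone. By swing 4 or 5 of the 7 were above the median under every alternative tried. ZT3 minus the mean of the later time points changed sign at the upstream BM peak of GRMZM2G126988 after centring on list medians (-0.21) or means (-0.09). Against ZT9 alone it changed sign at the BM (-0.06) and Mo17 (-0.49) peaks of GRMZM2G398288. The causes were not tested. Percentiles of single peaks left the 95% Wilson interval of the reported one in 27 of 35 alternatives for strength and 22 of 35 for swing, so a rank holds for its own definition only. Read depth for each peak is unknown, so these intervals cover counting over peaks and not the error of a value.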

Other observations

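Among 23 further genes of malate metabolism, carbon fixation and starch synthesis, taken by their RefSeq names after the files were seen, 3 had a peak in any list and none in all 4. For scale, of the 18527 genes in the RefSeq table with an identifier of this kind, 2895 (15.6%) had a peak in any list, so the 3 of 23 were near that share, and nothing is read from the counts of these short lists. All 12 genes of starch synthesis, among them sh2 and bt2 (ADP-glucose pyrophosphorylase), wx1 (granule-bound starch synthase), du1 and zSSIIa (starch synthases) and ae1 (a starch branching enzyme), had no peak in any list. Of the 5 genes of malate metabolism, GRMZM2G415359 (RefSeq names CYTMDH, mdh4 and mdh5, a malate dehydrogenase) had a peak in BM with 2.00, 0.35 and 0.93 at ZT3, ZT9 and ZT15 and an overlapping peak in B73 with 2.00, 2.49 and 1.95. It was thus highest at ZT3 in the hybrid and at ZT9 in the inbred, with near-equal values at ZT3. The list medians were also highest at ZT3 in BM (1.79) and at ZT9 in B73 (1.56). Of the 1256 overlapping BM and B73 pairs, 40.1% had the same time of highest value, so a differing time was usual. The difference at this gene was not tested. GRMZM2G122479 (me2, a malic enzyme) had a peak in B73 only, with 0.44, 1.82 and 0.83, which, like the B73 peak of GRMZM2G129513, was lowest at ZT3 and highest at ZT9. The B73 peak of GRMZM2G415359 was instead lowest at ZT15. In the whole B73 list 37.8% of peaks were highest at ZT9, so nothing is read from this likeness.

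Of the 6 genes of carbon fixation, GRMZM2G098520 (ssu1, a Rubisco small subunit) alone had a peak, in MB only, with 2.22 at ZT3, -1.24 at ZT9 and -0.49 at ZT15. Its swing of 3.46 was at percentile 99.8 of the MB list, and input exceeded ChIP at ZT9 and ZT15. These values were not tested, and each is a single pooled value.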
